A study of Mus musculus with 2 samples.

Results

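The stefin A cluster of the mouse is a tandem array of small genes for intracellular inhibitors of cysteine proteases. The genes described here are Stfa1, Stfa2, Stfa3, Stfa2l1, BC100530 and BC117090, which are 6 of the 44166 genes of the deposited table, and all 6 were found there by symbol. They were chosen as a family with their levels in both libraries already known, so their levels and the differences between the libraries are a description and carry no test. The 2 libraries come from RNA of whole skin of C57BL/6 mice, 3 days old. The library labelled KO comes from the genotype RNF31fl/fl-K14-cre, in which floxed Rnf31 alleles meet Cre under the keratin 14 promoter, a driver of basal keratinocytes whose recombination their descendants inherit. The library labelled WT comes from wildtype skin, for which the labels name neither a floxed allele nor Cre. Each genotype has 1 library, and the labels do not say how many animals it holds.

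Stefins, also called type 1 cystatins, are cytosolic proteins that bind the active site of papain-type proteases such as cathepsins B, H, L and S reversibly and block it. Humans carry a lone gene of the A type, CSTA, whose product is a component of the cornified envelope of the epidermis and whose loss causes peeling skin disease, whereas mice carry a row of copies. In mice, stefin A transcripts are known from keratinocytes and from neutrophils.

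The coding sequences show how alike the copies are, and with that how far a value for a single copy can be trusted. Each of the 6 genes has 3 exons in GENCODE M21, and the coding length lies between 291 and 387 bases. Among the 15 pairs of members, identity over aligned coding bases ranged between 77.9% (Stfa1 with Stfa2l1) and 98% (Stfa1 with BC100530), with a median of 81.7%. At a cut of 90% identity the members fell into 3 sequence groups. The first joins Stfa1, BC100530 and BC117090, whose aligned coding bases are between 94.5% and 98% identical. Their coding lengths differ, with 387 bases in Stfa1, 294 in BC100530 and 291 in BC117090. The second is the pair Stfa2 and Stfa2l1, at 96.5%. Stfa3 stands by itself and is at most 84.7% identical to another member. The lines below give 51 coding bases of each member around the codons for the conserved loop of glutamine, any residue, valine, any residue and glycine, with which cystatins plug the protease. They are shown because they hold the inhibitory site and make the groups visible. The capitals mark the 15 bases of the loop codons, found in frame in the GENCODE M21 coding sequences.
Stfa1: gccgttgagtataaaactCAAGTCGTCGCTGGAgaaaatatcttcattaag
BC100530: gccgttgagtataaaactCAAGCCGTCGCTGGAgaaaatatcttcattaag
BC117090: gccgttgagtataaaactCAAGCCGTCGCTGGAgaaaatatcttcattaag
Stfa2: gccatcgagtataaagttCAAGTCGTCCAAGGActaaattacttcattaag
Stfa2l1: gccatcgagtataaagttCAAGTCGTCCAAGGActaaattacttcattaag
Stfa3: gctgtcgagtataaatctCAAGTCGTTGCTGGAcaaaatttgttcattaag
The 6 members carried 4 different 15-base loops. Stfa2 and Stfa2l1 were identical over the stretch, BC100530 and BC117090 were identical to each other, and Stfa1 and Stfa3 each had a form of its own.

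Exact repeats limit how reads can be placed. Of all 50-base windows of its longest coding transcript, Stfa3 shared none with another gene of GENCODE M21, so that all were its own. That share was 84.1% for Stfa2, 75.4% for Stfa2l1, 73.1% for Stfa1, 66.5% for BC100530 and 66.3% for BC117090. With 100-base windows it was complete for Stfa2, Stfa2l1 and Stfa3, against 94.4% for Stfa1, 86.9% for BC100530 and 86.5% for BC117090. Read length is not given in these sources, nor is the handling of reads that match several genes, so the split within a sequence group is uncertain, and sums over a group or over the family are the firmer values. BC100530 also shares 145 exonic bases with the antisense gene Gm15845, which was listed at 0.0839 FPKM in the library labelled KO and 0.175 FPKM in the library labelled WT. The sources used here do not say whether counting used strand.

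The libraries had 20511407 reads (93.6% aligned) for the one labelled KO and 19619928 reads (92.6% aligned) for the one labelled WT. The targeted gene Rnf31 itself was not lower where its deletion is labelled, at 5.4 FPKM in the library labelled KO and 3.95 FPKM in the library labelled WT, a ratio of 1.36, so the genotypes are written as labels throughout. Both libraries held the markers of skin. All 10 keratinocyte markers and all 6 fibroblast markers reached 1 FPKM in at least 1 library. Levels are in FPKM, fragments per kilobase of transcript scaled to the depth of the library, as the authors deposited them. In whole skin a difference in the number of cells of a type and a difference in RNA per cell cannot be told apart.

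Together the 6 stefin A genes were about 10 times as abundant in the skin labelled KO. Their FPKM summed to 14722 in the library labelled KO and to 1448 in the library labelled WT, which is a 10.2-fold difference (95% counting interval 9.97 to 10.4), or 3.34 as a log2 ratio on the log2(FPKM + 1) scale. The sum made up 1.98% of the FPKM of all genes in the library labelled KO and 0.215% in the library labelled WT. Counting intervals are exact binomial intervals on estimated fragments and cover counting error at most, with no part for variation between animals. The interval of the family sum was computed on summed fragments, whose log2 ratio was 3.52, and then rescaled to the ratio of the FPKM sums. Members of this family have transcripts of about the length of a sequenced fragment, for which the estimate is an upper limit, so their intervals may be too narrow even for counting error.

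At least 2-fold higher levels in the library labelled KO were seen for all 6 members, and lower ones for 0, on the log2(FPKM + 1) scale and among genes with at least 1 FPKM in a library. By the same rule 7.59% of 14541 genes were higher and 4.09% lower, so that 65% of the large differences of all genes were higher. That split was 54.5% when FPKM was rescaled without the 50 most abundant genes, which shifted the median log2 ratio of all genes by -0.12 from its value of -0.08. The median log2 ratio of the 6 members was 4.51. Since the members were chosen on this contrast, nothing is read from their count against the background.

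**Figure D1:**
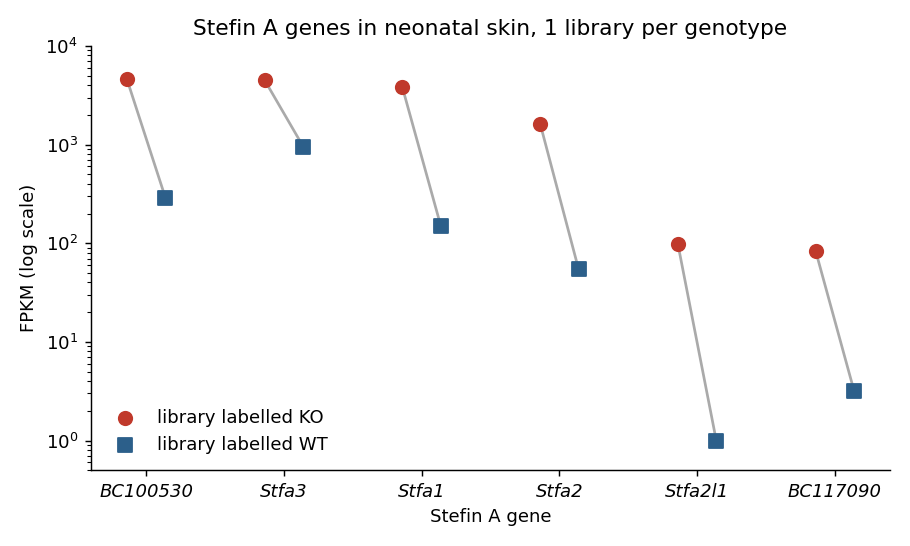
FPKM of the 6 stefin A genes on a log axis, with circles for the library labelled KO and squares for the library labelled WT, joined by a line for each gene. Every circle lies above its square, 4 genes pass 1000 FPKM in the library labelled KO and 0 do in the library labelled WT, and the shortest line is that of Stfa3.

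Of the group of Stfa1, BC100530 and BC117090, BC100530 was the most abundant copy in the library labelled KO. BC100530 (ENSMUSG00000071561, Cstdc5 in RefSeq, chr16:36359382-36367748 on the minus strand in GRCm38) was listed at 4599.6 FPKM in the library labelled KO and 288 FPKM in the library labelled WT. Its ratio was 16 (15.4 to 16.6), and by FPKM it ranked 9 among all genes in the library labelled KO and 329 in the library labelled WT. Stfa1 (ENSMUSG00000071562, chr16:36276951-36285373 on the plus strand) was listed at 3808 FPKM in the library labelled KO and 148 FPKM in the library labelled WT, a ratio of 25.7 (24.3 to 27.1). It thus ranked 16 in the library labelled KO and 639 in the library labelled WT. BC117090 (ENSMUSG00000079594, Cstdc6 in RefSeq, chr16:36321665-36334332 on the minus strand) stayed far lower, at 84.1 FPKM in the library labelled KO and 3.17 FPKM in the library labelled WT, the WT value from at most about 19.1 fragments. Its ratio of 26.5 (16.9 to 44.7) was close to that of Stfa1, within its wide interval. Summed over these 3 genes, which removes the split of shared reads among them, the level was 8491 FPKM in the library labelled KO and 439 FPKM in the library labelled WT, a ratio of 19.3 (18.7 to 19.9).

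The Stfa2 pair had the largest ratio of the 3 sequence groups and the smallest level. Stfa2 (ENSMUSG00000022902, chr16:36403992-36408457 on the minus strand) was listed at 1635 FPKM in the library labelled KO and 54.2 FPKM in the library labelled WT, a ratio of 30.1 (27.3 to 33.4). Stfa2l1 (ENSMUSG00000059657, chr16:36156811-36161953 on the plus strand) is the outermost member at one end of the array, whereas its near copy lies towards the other end. It was listed at 98.6 FPKM in the library labelled KO and 0.985 FPKM in the library labelled WT. The ratio of 100.1 (49 to 293) rests on a WT level of at most about 6.43 fragments, and its log2 ratio of 5.65 carried the widest interval of the 6 members. Summed, the pair stood at 1733 FPKM in the library labelled KO and 55.2 FPKM in the library labelled WT, a ratio of 31.4 (28.5 to 34.8), which is nearly the value of Stfa2 alone.

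Stfa3 differed least between the libraries and was the main stefin A transcript of the skin labelled WT. Stfa3 (ENSMUSG00000054905, chr16:36450537-36455392 on the minus strand) was listed at 4497 FPKM in the library labelled KO and 954 FPKM in the library labelled WT, a ratio of 4.72 (4.59 to 4.85) and a log2 ratio of 2.24. It ranked 11 among all genes in the library labelled KO and 106 in the library labelled WT. Its sequence is the most distinct of the members, and none of its 50-base windows recurs in another gene, so shared reads bear least on this value. The ratios of the 3 sequence groups were 31.4, 19.3 and 4.72. Whether they differ beyond the variation between animals was not tested, since each genotype has 1 library.

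Because the copies differed by unequal factors, the make-up of the family differed between the libraries. Stfa3 held 30.5% of the family FPKM in the library labelled KO, against 65.9% in the library labelled WT. The group of Stfa1, BC100530 and BC117090 held 57.7% in the library labelled KO, against 30.3% in the library labelled WT. The pair of Stfa2 and Stfa2l1 held 11.8% in the library labelled KO, against 3.81% in the library labelled WT. In the library labelled KO the order by level was BC100530, Stfa3, Stfa1, Stfa2, Stfa2l1 and BC117090, with the first a factor of 54.7 above the last. The order in the library labelled WT was Stfa3, BC100530, Stfa1, Stfa2, BC117090 and Stfa2l1, over a factor of 968. The neighbours BC100530 and Stfa3 in the first of these orders, at 4599.6 and 4497 FPKM, have no replicate spread by which they could be set apart. Left without Stfa3, the other 5 members summed to 10225 FPKM in the library labelled KO and 495 FPKM in the library labelled WT, and the ratio of the sums was then 20.7 in place of 10.2.

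**Figure D2:**
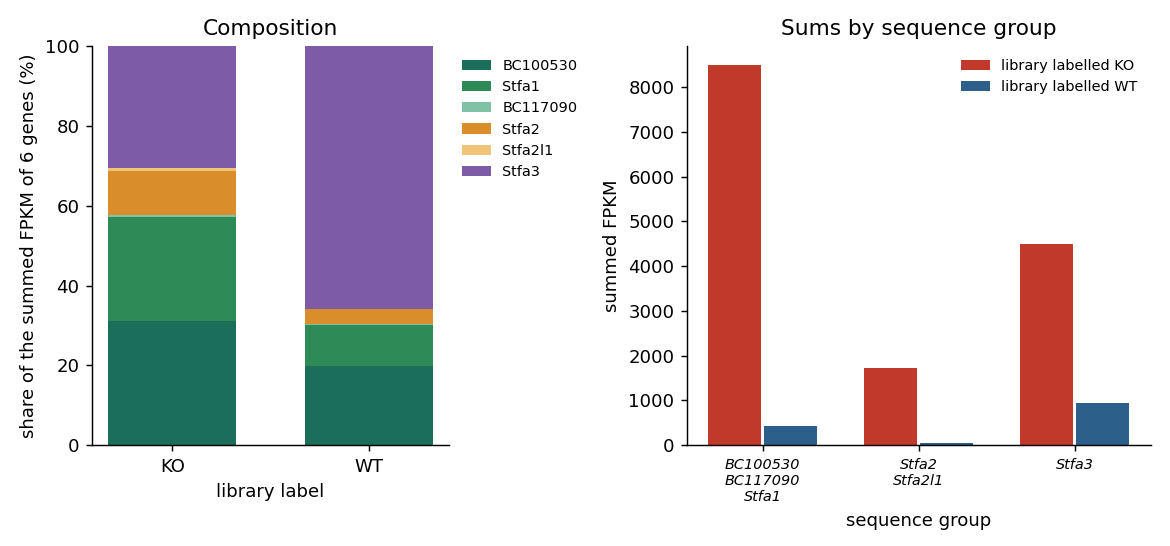
Left, share of the summed FPKM of the 6 genes (%) held by each gene, with the library labelled KO beside the library labelled WT. Right, summed FPKM of the 3 sequence groups in both libraries; the bar of Stfa3 is the highest in the library labelled WT (954 FPKM), and the group of BC100530, BC117090 and Stfa1 is the highest in the library labelled KO (8491 FPKM).

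In the authors' deposited table, the q-value of their own comparison of the libraries passed 0.05 for 2 of the 6 members, as it did for 0.616% of the 15589 genes they tested. The 2 are Stfa1 and Stfa2, each with a q-value of 0.012 in the authors' deposited table. BC100530 had a q-value of 0.0583, Stfa3 of 0.343, BC117090 of 0.457 and Stfa2l1 of 0.999 in the authors' deposited table. The member with the largest ratio, Stfa2l1, thus had the highest q-value. These values come from a comparison of single libraries, as do the levels.

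The array holds further stefin-type genes that are not counted in the family sum. Between the start of Stfa2l1 and the end of Stfa3, over 299 kb of chromosome 16 (36156811 to 36455392), the table also lists Gm5483 (Cstdc4 in RefSeq), Gm5416 (Csta3), 2010005H15Rik (Csta2) and Gm4758 (Cstdc3). All 4 were at least 2-fold higher in the library labelled KO, beside 7.59% of all 14541 genes above the floor. Gm5416, 2010005H15Rik and Gm4758 passed the floor through the library labelled KO only, so by this rule they could not be called lower. Gm5483 was listed at 198 FPKM in the library labelled KO and 2.71 FPKM in the library labelled WT. For 2010005H15Rik, whose coding bases are 96.9% identical to those of Gm5483, the values were 123 FPKM and 0.311 FPKM in the libraries labelled KO and WT. Gm5416 was at 207 FPKM and Gm4758 at 12.5 FPKM in the library labelled KO, and the library labelled WT lists both at 0. Together the 4 genes summed to 541 FPKM in the library labelled KO and 3.02 FPKM in the library labelled WT, so they added little to the family. Csta1, a stefin-type gene on the flank of the array, lies 25.6 kb before Stfa2l1. It was at 544 FPKM in the library labelled KO and 24.9 FPKM in the library labelled WT, a ratio of 21.8 (20.5 to 23.2). With these 5 genes added to the members, the sum of 11 stefin-type genes was 15807 FPKM in the library labelled KO and 1476 FPKM in the library labelled WT, a ratio of 10.7.

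The genes on either side of the array were looked at for comparison. The 3 other listed genes inside the array (Gm10913, Gm10813 and Gm15845) stayed at or below 0.539 FPKM in both libraries. In the 500 kb on each side, 17 of 27 listed genes reached 1 FPKM in at least 1 library. Of these, 6 were at least 2-fold higher in the library labelled KO, 1 was lower and 10 lay inside the rule. Among all 14541 genes above the floor, 7.59% were higher and 4.09% lower. The median log2 ratio of the flanking genes was -0.07, and -0.09 without Csta1. Besides Csta1 the higher flanking genes were Fam162a (206 FPKM in the library labelled KO and 67.7 FPKM in the library labelled WT), the haematopoietic adaptor gene Hcls1 (11.5 and 4.32 FPKM in the libraries labelled KO and WT), and 3 interferon-inducible genes. Those 3 are Parp9 (9.28 and 2.29 FPKM in the libraries labelled KO and WT), Dtx3l (3.03 FPKM in KO and 0.98 FPKM in WT) and Parp14 (2.74 FPKM in KO and 0.808 FPKM in WT). The lower one was the peptide transporter gene Slc15a2 (0.0505 FPKM in the library labelled KO and 4.55 FPKM in the library labelled WT), whose log2 ratio of -2.40 was larger in size than that of Stfa3. Within 200 bases of the 3' end of 8 of 10 stefin-type genes with an entry in GENCODE M21, 5 members among them, the annotation places a gene of a small nuclear RNA, at a distance of 59 to 133 bases and each time on the opposite strand. Stfa3 and Csta1 have none there.

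**Figure D3:**
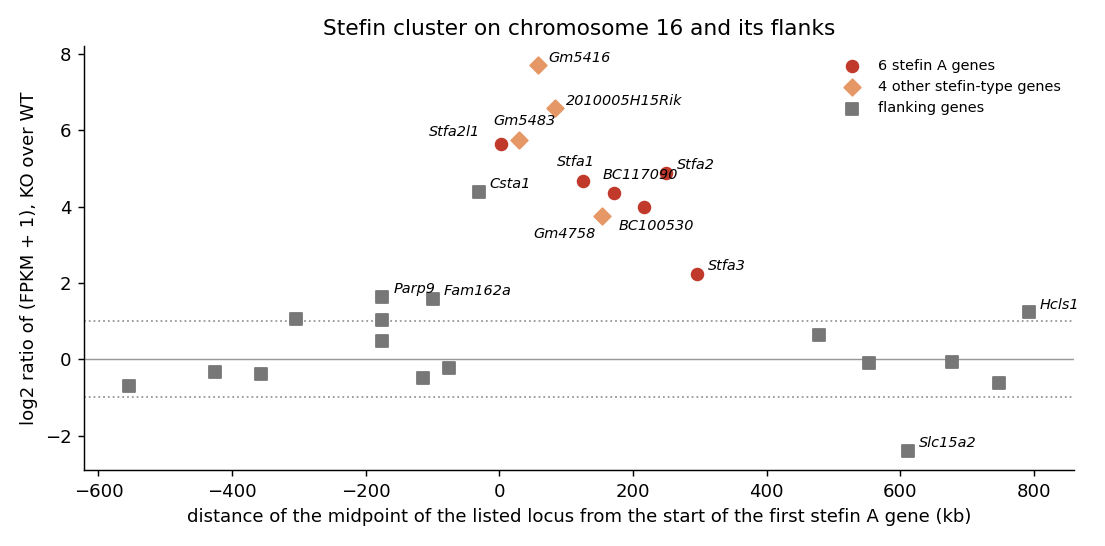
Log2 ratio of (FPKM + 1), library labelled KO over library labelled WT, of each gene above 1 FPKM against the distance of its listed locus from the start of Stfa2l1 (kb); dotted lines mark the 2-fold rule. Circles are the 6 members, diamonds the 4 other stefin-type genes and squares the flanking genes, and among the squares Csta1 (log2 ratio 4.39) stands with the stefins while the other flanking genes lie between -2.40 and 1.64.

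The stretches before the start sites were compared because the copies were higher together. RefSeq promoters (GRCm38.p6) were matched for 5 of the 6 members, and over the 250 bases before the start their identity ranged between 82.2% and 96.1% in 10 pairs, with BC100530 and Stfa1 the most alike. The 120 bases before each RefSeq start follow. For Stfa1, BC100530 and Stfa2 the RefSeq start lies inside the GENCODE gene given above, so that the stretches of Stfa1 and BC100530 and most of that of Stfa2 overlap the GENCODE gene. Capitals mark the longest run of letters that all 5 share in that stretch, which was found by searching these same sequences.
Stfa1 (chr16:36277028-36277147, plus strand): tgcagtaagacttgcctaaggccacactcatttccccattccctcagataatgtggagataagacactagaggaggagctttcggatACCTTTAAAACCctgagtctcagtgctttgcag
BC100530 (chr16:36367571-36367690, minus strand): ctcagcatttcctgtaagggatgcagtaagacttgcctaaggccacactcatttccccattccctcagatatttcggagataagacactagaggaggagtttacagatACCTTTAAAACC
Stfa2 (chr16:36408364-36408483, minus strand): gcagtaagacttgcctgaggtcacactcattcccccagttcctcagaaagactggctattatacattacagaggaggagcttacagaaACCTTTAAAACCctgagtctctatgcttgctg
Stfa2l1 (chr16:36156691-36156810, plus strand): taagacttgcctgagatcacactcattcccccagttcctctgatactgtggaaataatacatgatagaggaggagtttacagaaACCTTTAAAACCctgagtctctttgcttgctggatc
Stfa3 (chr16:36455393-36455512, minus strand): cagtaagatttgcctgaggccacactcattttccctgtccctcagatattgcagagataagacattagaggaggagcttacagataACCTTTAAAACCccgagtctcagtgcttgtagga
The shared run of 12 bases begins 33 bases before the start in Stfa1, 32 in Stfa2, 34 in Stfa3, 36 in Stfa2l1 and 12 in BC100530. Among 32851 promoters of 300 bases in the table, 11 (0.0335%) hold it on either strand, and 9 of these 11 lie inside the stefin array. Of 4 motifs searched on both strands in the 300-base windows, TATAAA, the core promoter box, was in 0 of the 5 member promoters and in 13.6% of all promoters. A restricted NF-kB pattern, with T at positions where the consensus also allows C, was in 0 of 5 and in 1.63% of all. Other forms of the NF-kB consensus were not searched, so whether the member promoters hold them was not tested. The C/EBP pattern TTNNGNAAT was in 0 of 5 and in 11.5% of all. The AP-1 pattern TGANTCA was in 1 of 5, namely Stfa3, where it begins 29 bases after the start, and in 7.81% of all. A missing match says only that these letters are not in the window.

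The papain-type cathepsins are the proteases that stefins inhibit, and their list also holds legumain, an unrelated cysteine protease inhibited by some type 2 cystatins but not by stefins. Of these 11 genes for papain-type cathepsins and legumain, 10 reached 1 FPKM. For comparison, the 2-fold rule called 7.59% of all 14541 genes above the floor higher and 4.09% lower. Of the 10 protease genes, the rule called 2 higher where KO is labelled and 0 lower, and 8 lay inside it. The median log2 ratio of the 10 was 0.23. The higher ones were Ctss, the cathepsin S gene of antigen-presenting cells, at 32.2 FPKM in the library labelled KO and 6.1 FPKM in the library labelled WT (log2 ratio 2.23, against 2.24 for Stfa3), and Ctsl, the cathepsin L gene, at 324 FPKM in the library labelled KO and 111 FPKM in the library labelled WT. Ctsh (cathepsin H) and Lgmn (legumain) were just inside the rule with log2 ratios of 0.96 each, and Ctsb (cathepsin B) stood at 241 FPKM in the library labelled KO and 195 FPKM in the library labelled WT. Summed with legumain, the protease genes came to 1064 FPKM in the library labelled KO and 666 FPKM in the library labelled WT, a ratio of 1.6. The summed stefin A level was therefore 13.8 times the summed protease level in the library labelled KO and 2.17 times in the library labelled WT, at the level of transcripts.

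Other cystatin genes were compared in the same way, beside the same shares of all genes, 7.59% higher and 4.09% lower. Of 10 type 1 and type 2 cystatin genes 4 reached 1 FPKM, 2 were higher and 0 lower, with a median log2 ratio of 0.87 among the 4. Cst6, the gene of the secreted epidermal cystatin M/E, was at 182 FPKM in the library labelled KO and 24.7 FPKM in the library labelled WT, a ratio of 7.36 (6.98 to 7.77), which lies above that of Stfa3 and below those of the other members. Cstb, the gene of the widely expressed stefin B on another chromosome, was at 305 FPKM in the library labelled KO and 130.5 FPKM in the library labelled WT, a ratio of 2.33 (2.18 to 2.5). Cst3, the gene of the secreted cystatin C, was at 422 FPKM and 378 FPKM in the libraries labelled KO and WT, Cst7, the gene of cystatin F of immune cells, at 1.99 FPKM in KO and 1.09 FPKM in WT, and the 6 cystatin genes under the floor were listed at 0 in both. Of 8 transglutaminase and envelope genes, which act in the structure that takes up the human stefin, 3 were higher and 0 lower (median log2 ratio 0.70), with Ivl (involucrin) at 77.3 FPKM in the library labelled KO and 9.67 FPKM in the library labelled WT, Tgm1 at 118 FPKM in KO and 46.4 FPKM in WT, and Tgm5 at 6.58 FPKM in KO and 2.36 FPKM in WT. Tgm3 was inside the rule with a log2 ratio of 0.73.

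**Figure D4:**
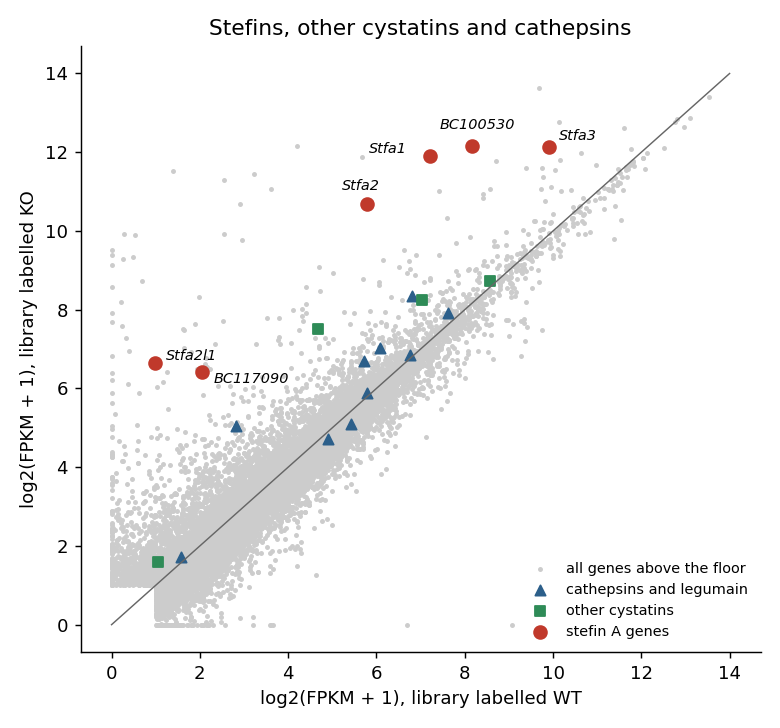
Log2(FPKM + 1) of the 14541 genes above the floor in the library labelled KO (vertical) against the library labelled WT (horizontal), with the line of equal levels. The 6 stefin A genes lie above most genes of like level, and the other cystatins are squares and the cathepsins with legumain triangles. Cst6 (log2 ratio 2.83) lies farther from the line than Stfa3 (2.24), Ctss (2.23) about as far, and the other squares and triangles lie nearer.

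By level in both libraries, the genes nearest to the stefin A sum were epidermal. Over the 2 libraries, and with predicted genes left out, the 5 smallest distances on the log2(FPKM + 1) scale were those of Krt14 (0.86), Krtdap (1.13), Lgals7 (1.65), Krt17 (1.88) and Sprr1a (2.08). Krt14, the keratin of the basal layer, was at 12590.1 FPKM in the library labelled KO and 816 FPKM in the library labelled WT, a ratio of 15.4. Krtdap, a secreted product of differentiating keratinocytes, was at 7013 FPKM in the library labelled KO and 1121 FPKM in the library labelled WT, a ratio of 6.26. Lgals7, Krt17 and Sprr1a had ratios of 2.03, 2.53 and 3.14, against 10.2 for the stefin A sum. A sum of 6 genes was set against single genes, so only very abundant transcripts could lie near it. A likeness over 2 libraries rests on 2 values for each gene.

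Markers of cells that could also carry stefin A transcripts were compared beside the family. Among all genes above the floor, 7.59% were higher and 4.09% lower by the 2-fold rule. Of 16 neutrophil markers 8 reached 1 FPKM, with 6 at least 2-fold higher and 0 lower where KO is labelled. Ngp, Ltf, Retnlg, Mmp8 and Mmp9 passed the floor through the library labelled KO only, so by this rule they could not be called lower. The same holds for the macrophage and monocyte markers Fcgr1 and Ly6c2 and the mast cell markers Tpsab1 and Ms4a2. The 16 neutrophil markers summed to 117 FPKM in the library labelled KO and 8.78 FPKM in the library labelled WT. Ly6g was listed at 0 in both libraries, Retnlg at 26.2 FPKM and Ngp at 6.37 FPKM in the library labelled KO and at 0 in the library labelled WT, and Lcn2, which activated keratinocytes make too, was the highest at 64.3 FPKM in the library labelled KO. Lcn2 made up most of the neutrophil sum in the library labelled KO. In the library labelled WT, 6 neutrophil markers were listed at 0 and the highest was Camp at 3.53 FPKM. Camp (6.38 FPKM in the library labelled KO) and Prtn3 (3 FPKM in KO and 3.22 FPKM in WT) were inside the rule. The 8 neutrophil markers under the floor included Elane, Mpo and Ctsg. The ratio of the summed levels, KO over WT, was 13.4 for neutrophil markers and 4.25 for keratinocyte markers. It was 2.58 for macrophage and monocyte, 1.55 for mast cell and 0.774 for fibroblast markers, and 10.2 for the stefin A sum. The 12 macrophage and monocyte markers summed to 572 FPKM in the library labelled KO and 221 FPKM in the library labelled WT, with 9 higher and 0 lower of 11 above the floor, and none was at 0. The 9 mast cell markers summed to 654 FPKM in the library labelled KO and 422 FPKM in the library labelled WT, with 3 higher and 0 lower of 8 above the floor, and the library labelled WT lists Fcer1a at 0. The 10 keratinocyte markers summed to 17791 FPKM in the library labelled KO and 4182 FPKM in the library labelled WT, with 3 higher, 2 lower and 5 inside the rule. Krt14 made up most of that sum in the library labelled KO, Ivl and Lor are shared with the envelope genes, and the lower ones were Krt10, the keratin of the suprabasal layers (188 FPKM in the library labelled KO and 678 FPKM in the library labelled WT), and Krt15 of the basal layer (97.1 FPKM in KO and 226 FPKM in WT). The 6 fibroblast markers summed to 2383 FPKM in the library labelled KO and 3079.9 FPKM in the library labelled WT, and all 6 lay inside the rule. The part of each cell type in the stefin A difference was not tested.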

How the data were processed

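Whole skin RNA was sequenced in 2 libraries, 1 per genotype, after TRIzol extraction and a directional library kit, per the labels' protocols. The submitters' processing notes name cutadapt 1.9.1, HISAT2 2.0.4, Cufflinks 2.2.1 and the build GRCm38. The authors deposited FPKM per gene with the column set of Cuffdiff, and the p-value and q-value of their own comparison, per the file headers. A second deposited sheet holds each library's count of reads and the aligned fraction, made by the authors.

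From these values the log2 ratio of FPKM plus a pseudocount of 1 was computed, with a floor of 1 FPKM in at least 1 library and a 2-fold rule. With 1 library per genotype no test was possible. Fragments were estimated from FPKM, the longest GENCODE M21 transcript and the step on which low values of single-transcript genes of at least 3000 bases lay (79.3% of 367 values within 0.25 of a whole step for the library labelled KO, 81.5% of 373 for the library labelled WT). The authors' annotation differs from GENCODE M21, in which 43831 of 44166 identifiers were found; the identifier listed for Gm4758 names another gene there, so Gm4758 has the table's name and place and no sequence. The scripts were tested on simulated data. Coding sequences come from GENCODE M21 (aligned with Biopython 1.88) and promoters from RefSeq, GRCm38.p6.

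Members, gene lists and rules were chosen with earlier results of these data known. Named are all members, the other genes of the array, flanking genes past the rule, members of the cystatin, protease and envelope lists past it or among the 4 largest differences, Rnf31, and the 5 nearest genes. Cell type markers, and a few list members inside the rule, were named as examples after their values were seen.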

Additional observations from a re-analysis of the deposited data

How the results depend on the processing

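The 6 members were at least 2-fold higher under each of the pseudocounts 0.1 and 5, both other scalings, no floor and a floor of 5 FPKM, and 10 genes were so with the other stefin-type genes of the array counted in. Each member was at 84.1 FPKM or more in the library labelled KO, so the floor settings could not change the count of members. Since the members were chosen on this contrast, these settings show only how far the values depend on processing. All 24 alternative values of single members kept their direction and stayed above 1 on the log2 scale, with Stfa2l1 between 4.11 and 6.51 and BC117090 between 3.45 and 4.69 across pseudocounts and scalings. The log2 ratio of the family sum, 3.34 as reported, was 3.21 when rescaled without the 50 most abundant genes, 3.44 with median of ratios scaling, 4.37 without Stfa3 (the most abundant member by the mean of the libraries, with BC100530 above it in the library labelled KO), 3.39 with the other stefin-type genes and 3.52 as estimated fragments. Chosen after seeing the data, it was 3.12 without BC100530 and 3.42 with the other stefin-type genes and Csta1. Of all genes, 528 were higher and 165 lower with a pseudocount of 5, 1085 were lower with 0.1, and 360 were lower with a floor of 5 FPKM, against 1103 and 595 as reported; a larger pseudocount shrinks, and a higher floor removes, differences of low genes by construction. No paired analysis was possible because each genotype has 1 library. That also leaves variation between animals unmeasured, and depth limits the WT levels of Stfa2l1 and BC117090.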
